A study of Mus musculus with 96 samples.

Results

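Single erythroid progenitor cells from the 2 ends of a fetal liver sort were compared after the cells that were not erythroid had been set aside: 22 cells of the CFUE gate (colony-forming units, erythroid) against 15 cells of the BFUE gate (burst-forming units, erythroid). These 37 cells were chosen from the 96 wells of a single plate. A well needed 50000 or more reads in genes, which 91 wells had. BFUE cells were selected on Cd34, the surface marker of stem and early progenitor cells, and only those under 100 CPM (its reads per 1000000 reads in genes of the cell) were taken. A CFUE cell needed a read in 7000 or more genes.

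The cells came from livers of C57/Bl6J mouse embryos at embryonic day 14.5, with no genetic change or treatment named in the labels. Cells carrying CD3e, CD45R, Ly-6G, CD11b, Ter119, Sca-1, CD16/32 or CD41 had been depleted with antibodies, and the remainder was stained for Kit, CD71 and CD24 and sorted into 4 gates of 24 wells. The BFUE and CFUE gates are the ends, and between them lie the gates named for 25 to 35% and for 50 to 60% of CD71/CD24 expression, here the lower and upper intermediate gates. Libraries were made by Smart-seq2, which amplifies full-length cDNA of 1 cell without molecular identifiers. The labels name no embryo, litter or pool, and each gate filled plate columns of its own, so gate and plate column cannot be told apart.

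The header of the count table has 98 fields and its rows 97, since an empty cell follows the name of the gene column. The well names were read in order with that cell dropped. With the cell kept, each name would stand over the next column and the last name over none, the cell called CFUE A10 here would be a BFUE cell, and BFUE A1 would leave the comparison. Only with the cell dropped does each of the 96 wells have a column of values. The files do not state which reading is meant, so summed results that moved most are given under both. Counts of cells above or below every cell of the other side, cell ranges and the levels of the intermediate gates are given under the first reading and were not all recomputed.

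BFU-E are the earliest progenitors committed to the red cell lineage, and in the fetal liver they divide under stem cell factor and glucocorticoids. CFU-E are their more mature progeny, which depend on erythropoietin, take up iron through the transferrin receptor CD71 and stand directly before the hemoglobin-making erythroblasts. The factors Gata1 and Klf1 drive the genes for heme, globin and the red cell membrane, while Gata2, Myb and Kit belong to the earlier state.

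Cd34 was between 0 and 5.16 CPM in the 15 BFUE cells taken and between 1036 and 2202 CPM in the 8 left out, so no cell lay near the limit. The CFUE cell with the fewest genes that was kept had 7422, and the cell left out had 6361. These 2 measures chose the cells and are no findings. Both sides carried the erythroid label in their transcripts: Gata1 was between 265 and 771 CPM in CFUE and between 189 and 583 CPM in the BFUE cells, against 2.17 to 66.9 CPM in the 8 BFUE cells left out and 3.17 CPM in the CFUE cell left out. Klf1 was between 686 and 1437 CPM in CFUE and between 167 and 1094 CPM in BFUE. CFUE cells held 1403173 to 2060115 reads and 7422 to 10246 genes with a read (median 9293), and BFUE cells 1464907 to 3785903 reads and 9118 to 9898 genes (median 9567). Both sides held cells of either sex: 10 CFUE and 8 BFUE cells had 10 or more reads of Xist with under 10 from the Y chromosome, and 11 and 6 cells the reverse, which leaves 1 CFUE cell with both and 1 BFUE cell with neither.

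Cells of 1 plate with no embryo named are not replicates, so each side counts as 1 sample and no difference below has a test or a replicate check. Reads were summed over the cells of a side (34506841 in CFUE and 26209421 in BFUE) and the 2 sums were compared. The exact 95% intervals, Poisson for a level and Clopper-Pearson for a ratio, cover counting error only, and reads without molecular identifiers are not independent molecules. The spread over cells is given beside them as the lowest, median and highest cell.

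The stretch before the RefSeq start site (assembly GRCm38.p6) is shown for 4 genes with some of the largest ratios in the membrane, heme and globin lists, to show which short motifs of erythroid factors lie there. They were chosen after their values were seen, and Slc4a1, with the largest ratio in the membrane list, had no entry in the table. Capitals mark matches, on either strand, to AGATAA or TGATAA, the letters bound by GATA factors, and to CCNCNCCC, the CACC box of Klf factors. Each run is 250 bases long and ends at the base before the start.
Trim10 (chr17:36869324-36869573, plus strand): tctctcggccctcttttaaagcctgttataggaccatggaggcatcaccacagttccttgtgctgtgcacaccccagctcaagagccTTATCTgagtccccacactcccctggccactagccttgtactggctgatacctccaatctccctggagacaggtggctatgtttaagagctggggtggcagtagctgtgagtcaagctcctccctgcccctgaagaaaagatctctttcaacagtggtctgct
Alas2 (chrX:150547167-150547416, plus strand): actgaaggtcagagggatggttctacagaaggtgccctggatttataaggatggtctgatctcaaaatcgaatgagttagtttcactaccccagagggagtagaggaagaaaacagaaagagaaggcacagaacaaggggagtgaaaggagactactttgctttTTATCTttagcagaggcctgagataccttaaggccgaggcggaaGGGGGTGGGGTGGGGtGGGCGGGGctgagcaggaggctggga
Hba-a2 (chr11:32296242-32296491, plus strand): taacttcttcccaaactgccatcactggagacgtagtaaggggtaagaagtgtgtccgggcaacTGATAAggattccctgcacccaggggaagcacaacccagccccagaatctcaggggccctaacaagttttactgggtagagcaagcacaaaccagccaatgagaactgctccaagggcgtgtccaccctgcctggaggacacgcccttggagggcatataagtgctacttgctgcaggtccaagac
Hbb-bs (chr7:103827929-103828178, minus strand): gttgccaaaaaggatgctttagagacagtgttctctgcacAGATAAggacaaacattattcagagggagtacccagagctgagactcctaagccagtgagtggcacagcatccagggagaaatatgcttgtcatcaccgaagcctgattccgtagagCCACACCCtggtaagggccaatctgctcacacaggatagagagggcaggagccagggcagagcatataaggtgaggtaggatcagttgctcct

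A GATA match lay 163 bases before the start of Trim10, 86 before Alas2, 186 before Hba-a2 and 210 before Hbb-bs. Hbb-bs held 1 CACC match at 93 bases, and Alas2 held 4 of them between 42 and 26 bases before the start, some of which overlap. A GATA match was in 16.6% of all 32851 promoter windows in the table and in 9.30% of those of measured genes, in 13.1% of windows of genes 2-fold or more higher in CFUE and in 10.2% of windows of genes 2-fold or more lower. The CACC box was in 45.9%, 62.5%, 65.3% and 68.1% of these windows in the same order. All 4 genes shown hold a GATA match, so they are not typical of the higher genes. A match describes the letters and is no evidence of binding. Of the 544 higher and 1154 lower genes named below, 419 and 888 had an entry.

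Most heme, globin and red cell membrane genes were higher in CFUE, and most early progenitor transcription factors and adhesion genes were lower. A gene counted as measured at 10 CPM or more in either summed side, which 8231 genes reached. Of these, 544 were 2-fold or more higher in CFUE, or 6.61%, and 1154 were 2-fold or more lower, or 14%. At 10-fold or more the counts were 73 higher and 221 lower, and the median log2 ratio of all measured genes was -0.10. Lower genes thus outnumbered higher ones at both thresholds. With TMM or DESeq2 size factors the median moved up by 0.11 and 0.12, and the counts were 646 higher and 1022 lower, and 649 and 1012, so values below are read against the median of all genes.

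**Figure D1:**
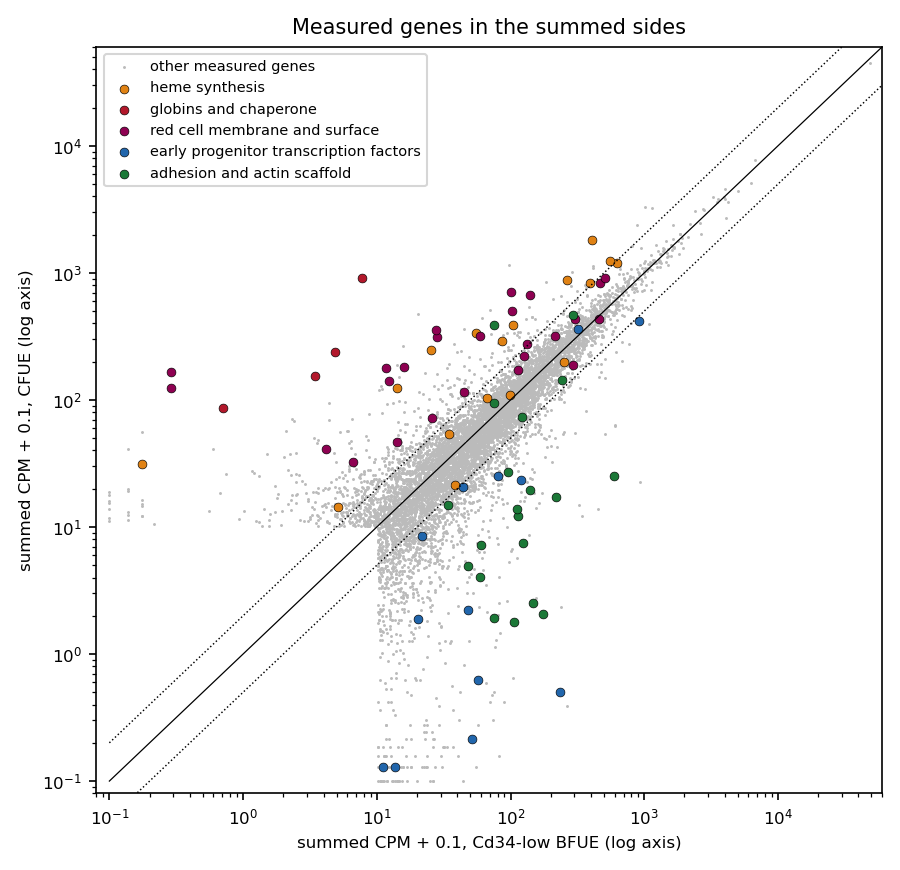
Summed CPM plus 0.1 of each of the 8231 measured genes in the Cd34-low BFUE side (x axis) and in the CFUE side (y axis), both on log axes. The solid line marks equal levels, the dotted lines mark 2-fold, and colours mark 5 gene lists. All 4 measured globin genes, 17 of 25 membrane genes and 11 of 17 heme genes lie above the lines. Below them lie 15 of 20 adhesion genes and 12 of 13 early progenitor factors.

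Slc4a1, which encodes band 3, the anion exchanger of the red cell membrane (GRCm38 chr11:102348824-102366203), had the largest ratio under the rule for named genes. Its summed level was 166.8 CPM in CFUE (interval 162.6 to 171.2) and 0.19 CPM in BFUE (0.06 to 0.45), a ratio of 875 (375 to 2694), or 450 with the empty header cell kept. The cells behind the CFUE sum were far apart, with 0 CPM in the lowest, 23.8 in the median and 632 in the highest. The highest BFUE cell had 0.655 CPM, which was 1 read, and 16 of the 22 CFUE cells lay above it. Of these, well B11 did so barely, at 0.663 CPM. Trim10, a TRIM family protein, was 653-fold higher (280 to 2013), or 1023-fold without the BFUE cell of well G2. It lay above every BFUE cell in 21 of 22 CFUE cells. Wells A10 and C10 did so barely, at 1.43 and 1.39 CPM against 1.25 CPM in BFUE well G2. Btg2, an antiproliferative factor, had 1925 reads in CFUE against 2 in BFUE, a ratio of 731 (202 to 6041) that went to 1368 without the BFUE cell of well A3.

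That rule asks for 50 CPM or more on the higher side and 10 or more reads in at least 50% of its cells, among other limits, and 211 higher genes met it. Some genes that did not meet it had ratios larger than those named next. Of the 15 largest that did, 6 are in no gene or marker list. Slc46a3, a lysosomal solute carrier, was at 70.6 CPM in CFUE and 2.21 CPM in BFUE, and its 31.9-fold ratio rested on the BFUE cell of well G1, without which it was 434. Mgll, the monoacylglycerol lipase, was 29.5-fold higher (64.2-fold without BFUE well H1), and Scd1, the stearoyl-CoA desaturase, was 16.1-fold higher (245-fold without BFUE well B3). Rgcc, a regulator of cell cycle proteins, was 23.5-fold higher and stood out by its even level, since its CFUE cells held 117 to 836 CPM and 21 of 22 exceeded every BFUE cell. Without BFUE well H3 it was 35.7-fold higher, and with the empty header cell kept 7.96-fold, since well A10 then counts as BFUE. Acp5, the tartrate-resistant acid phosphatase, was 17-fold higher and above every BFUE cell in 20 of 22 CFUE cells. Gpr146, an orphan receptor, was 28.8-fold higher (70.7 without BFUE well D1), Tspan15, a tetraspanin, 21.8-fold higher (43.7 without G1), and Rab3il1, a Rab exchange factor, 15-fold higher (25.2 without F2). In these genes single BFUE cells thus held much of the BFUE reads.

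At the other end stood Muc13, a transmembrane mucin (chr16:33794037-33819934). It was at 266 CPM in BFUE (14 of 15 cells above every CFUE cell, median 195) and at 0.29 CPM in CFUE, where the highest cell held 1.27 CPM. This is 917-fold lower (498 to 1913). Fli1, an ETS factor of the megakaryocyte lineage, was 443-fold lower (173 to 1630), Klhl6, an adaptor known from lymphocytes, 364-fold and Psmb8, a subunit of the immunoproteasome, 327-fold lower. Each had 4 to 7 reads in the whole CFUE sum, so their intervals are wide. The RNA-binding protein gene Celf2 was 278-fold lower, the adaptor gene Dok2 192-fold, the Rab GTPase gene Rab37 189-fold, the surface receptor gene Cd48 185-fold, the matrix protein gene Emilin1 133-fold and the homeobox gene Hhex 110-fold. Leaving out 1 CFUE cell took Celf2 to 418 (without G12), Rab37 to 489 (without B11) and Hhex to 1900 (without C10).

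For some genes the cells of the 2 sides did not overlap in CPM. All 22 CFUE cells lay above all 15 BFUE cells for 6 of the 8231 measured genes (0.0729%), and all lay below for 8 (0.0972%). With the empty header cell kept these counts were 2 and 3, of which 0 and 1 were shared, so the genes named here rest on the reading of the header. Those above include Cd24a, whose protein CD24 was stained for the sort, the ferritin heavy chain gene Fth1, Hba-a2, the phospholipase gene Pla2g12a and Rfesd, which encodes a protein with a Rieske iron-sulfur domain. For Hba-a2 the gap was slight, at 4.18 CPM in the lowest CFUE cell and 4.01 CPM in the highest BFUE cell. The sum of Hba-a1 and Hba-a2 exceeded every BFUE cell in 21 of 22 CFUE cells. The lower ones were Gmfg and Arhgdib, regulators of the actin cytoskeleton, Laptm5, a lysosomal membrane protein of blood cells, S100a10, an annexin partner, Vav1, a guanine nucleotide exchange factor, Ptprcap, which binds the CD45 phosphatase, Rgs19, a regulator of G protein signalling, and Cmtm7. Of these genes, Pla2g12a, Rfesd, Vav1, Ptprcap, Rgs19, Cmtm7 and S100a10 were named after their values were seen. Laptm5 shows the size of the gap: BFUE cells held 76.9 to 723 CPM and CFUE cells 0 to 21.4 CPM, with a summed ratio 106-fold lower that went to 172 without the CFUE cell of well C11. Gmfg was 219-fold lower in the sums, and 577-fold without the CFUE cell of well G11, which held 4.98 CPM.

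**Figure D2:**
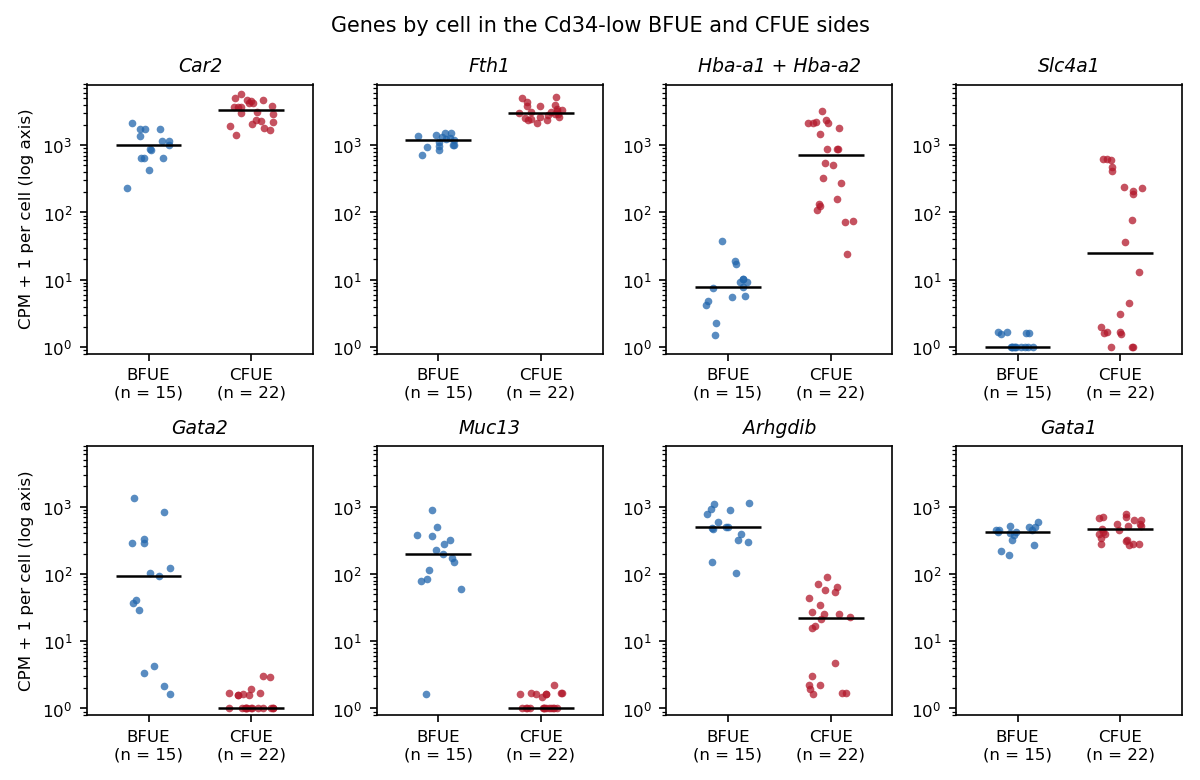
CPM plus 1 (log axis) of 8 genes in each Cd34-low BFUE cell (blue, n = 15) and each CFUE cell (red, n = 22), with a bar at the median. Fth1 and Arhgdib separate the sides cell by cell, Slc4a1 spreads over the CFUE cells from 0 to 632 CPM, and Gata1 overlaps.

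Heme synthesis stood apart as a group. Of the 17 measured genes, 11 were 2-fold or more higher in CFUE and 0 lower, with 1.51 as the median log2 ratio (0.97 in the upper 4 plate rows, 1.87 in the lower 4). Their summed level was 4438 to 11636 CPM in CFUE cells and 2076 to 4037 CPM in BFUE cells, with no overlap. With the empty header cell kept the highest BFUE cell held 8157 CPM and the sides overlapped, and 9 of the genes were 2-fold or more higher. Uros, the uroporphyrinogen III synthase, was at 46.7 to 909 CPM in CFUE cells and 0 to 133 CPM in BFUE cells, and 9.75-fold higher in the sums, and Fam210b, a mitochondrial protein of the pathway, 8.79-fold higher. Fech, the ferrochelatase that inserts the iron, was 3.29-fold higher (3.21 to 3.38), with 19 of 22 CFUE cells above every BFUE cell.

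The first enzyme of the pathway has 2 genes, and they differed. Alas2, the erythroid form, held 1087 reads in CFUE against 2 in BFUE, a ratio of 413 (114 to 3413) that ranged from 284 without the CFUE cell of well F12 to 778 without the BFUE cell of well H1. Its median CFUE cell held 0.70 CPM and its highest 252 CPM, and 12 cells lay above every BFUE cell. Wells C10 and G11 did so barely, at 0.70 and 0.71 CPM against 0.66 CPM in BFUE well H1. Alas1, the form found in all tissues, was 1.80-fold lower (1.63 to 1.98), short of 2-fold, and 2.10-fold lower without the BFUE cell of well D3. Per kilobase of exon, Alas1 was at 6.22 CPM in BFUE and 3.46 CPM in CFUE, and Alas2 at 0.03 and 13.1 CPM. In the sums, the higher level per length thus lay with Alas1 in BFUE and with Alas2 in CFUE. This order is of the summed sides and not of each CFUE cell, since the median CFUE cell held 0.70 CPM of Alas2.

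Among iron genes, the storage, uptake and transport genes Fth1, Tfrc, Slc40a1 and Slc25a37 were higher. Of 17 measured, 4 were 2-fold or more higher and 0 lower (median log2 ratio 0.33). The summed level was without overlap, at 6437 to 10360 CPM in CFUE cells and 2933 to 5371 CPM in BFUE cells. With the empty header cell kept, BFUE cells reached up to 10355 CPM. The sum includes the abundant Fth1, which alone was without overlap, and Tfrc, so it does not describe the list as a whole. Fth1, the ferritin heavy chain, was at 2145 to 5178 CPM in CFUE cells and 722 to 1542 CPM in BFUE cells, a 2.81-fold ratio (2.78 to 2.85). Slc40a1, the iron exporter ferroportin, was 2.75-fold higher, and Slc25a37, the mitochondrial iron importer mitoferrin 1, 2.34-fold higher. Tfrc, which encodes CD71, was 4.57-fold higher, but its protein set the gates. Tfr2, Aco1, Ireb2 and Ncoa4, which sense iron or release it from ferritin, all lay within 2-fold.

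All 4 measured globin genes were higher (median log2 ratio 6.27). How reads divide within the alpha pair and within the beta pair is uncertain, because the 2 genes of a pair are nearly the same in sequence, and sums are given. Alpha globin, the sum of Hba-a1 and Hba-a2, was between 23 and 3225 CPM in CFUE cells (median 709.7) and between 0.53 and 36.8 CPM in BFUE cells, a summed ratio of 121 (106 to 139). Beta globin, the sum of Hbb-bs and Hbb-bt, was between 0.58 and 2003 CPM in CFUE cells (median 104.7) and between 0 and 19.2 CPM in BFUE cells, a ratio of 48.3 (42.2 to 55.5). With the empty header cell kept these ratios were 7.63 and 27.2, since well A10 held 2153 CPM of alpha globin. Alpha globin exceeded every BFUE cell in 21 CFUE cells and beta globin in 16. Of single genes, Hba-a1 (chr11:32283511-32284465) was 120-fold higher (104 to 138), with 18.8, 647 and 3076 CPM in the lowest, median and highest CFUE cell, and 7.22-fold higher with the empty header cell kept.

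Membrane and surface genes were the list with the most higher members. Of 25 measured, 17 were 2-fold or more higher and 0 lower (median log2 ratio 2.26). Beside Slc4a1 and Trim10, Epb42, which encodes protein 4.2, the partner of band 3, was at 179 CPM in CFUE and 11.6 CPM in BFUE, a 15.4-fold ratio that was 25.2 without the BFUE cell of well E1 and 5.43 with the empty header cell kept. Sptb, the beta spectrin of the membrane skeleton, was 11.3-fold higher (10.3 to 12.5). Rhd of the Rh blood group was 7.06-fold higher and Kel, the Kell antigen, 5.39-fold higher. Members near equal were Cd47, the signal against phagocytosis, at 430 CPM in CFUE and 458 in BFUE, and Add1, an adducin, which was 1.57-fold lower while its erythroid partner gene Add2 was 4.93-fold higher. The Rh, Kell, spectrin and adducin genes were named after their values were seen. Ter119-positive cells had been depleted before the sort.

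The master regulators differed little. Gata1 was at 476 CPM in CFUE and 411 CPM in BFUE, a ratio of 1.16 (1.13 to 1.19), and Klf1 at 1075 and 657 CPM, a ratio of 1.64 (1.61 to 1.67). Of 19 measured erythroid transcription factors, 5 were 2-fold or more higher and 2 lower (median log2 ratio 0.39). Sox6, a repressor of embryonic globin genes, was 10.2-fold higher (7.91 to 13.3), but 7.42-fold when CFUE well B12 was left out and 23.2-fold when BFUE well A1 was. Hemgn, hemogen, was 7.22-fold higher (6.86 to 7.60), with 20 of 22 CFUE cells above every BFUE cell. Klf3, a repressor that Klf1 turns on, was 3.83-fold higher (7.25 without BFUE well A1) and E2f4 2.71-fold higher. Cbfa2t3, the corepressor ETO2, was 3.88-fold lower (3.57 to 4.22), and Nfe2 2.09-fold lower, or 1.95-fold without BFUE well G2, with 119 CPM in CFUE and 249 CPM in BFUE.

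Early progenitor factors were lower almost as a whole list. Of 13 measured, 12 were 2-fold or more lower in CFUE and 0 higher (median log2 ratio -3.48). In the lower 4 plate rows (E to H) alone, 7 were lower. Gata2 (chr6:88193891-88207032), the GATA factor that precedes Gata1, was at 235 CPM in BFUE and 0.41 CPM in CFUE, 578-fold lower (344 to 1058). Its BFUE cells ran from 0.62 through a median of 92.9 to 1353 CPM, and the highest CFUE cell held 2.03 CPM. Ikzf2 and Mycn each had 1 read in CFUE. Myc was 2.19-fold lower (1.98 without BFUE well A1), at 908 CPM in BFUE and 415 CPM in CFUE, and Myb, the factor that keeps progenitors dividing, was 5.11-fold lower (4.73 to 5.53) with 12 of 15 BFUE cells above every CFUE cell. Ikzf1, the factor Ikaros, was the exception, at 364 CPM in CFUE and 321 CPM in BFUE. Myb was named after its values were seen.

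Stem and megakaryocyte markers were highest in 3 BFUE cells, those of wells D1, G2 and A2. These held 1353, 825 and 287 CPM of Gata2, and wells G3 and D3 held 332 and 292 CPM. Meis1, Hhex and Fli1 stand both among these markers and in the gene lists described. The 14 stem and multipotent markers summed to 1124, 1084 and 596 CPM there, while the other 12 BFUE cells reached 322 CPM at most, 0 to 26.3 CPM in CFUE and 2545 to 4904 CPM in the BFUE cells left out. The 12 megakaryocyte markers summed to 1572, 1839 and 686 CPM, against at most 284 CPM in the other 12. Of 7 measured megakaryocyte markers 4 were 2-fold or more lower in CFUE and 0 higher; Pf4, Ppbp and Selp were at 0 on both sides, and CD41, the product of Itga2b, had been a target of the depletion. Without these 3 cells, 9 of the early progenitor factors were 2-fold or more lower, the list's median log2 ratio was -2.65, and 586 genes were higher and 1052 lower in all. This alternative was chosen after the values were seen. The part of these markers in the differences was not tested.

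Receptors of early progenitors were lower in 5 of 8 measured members and higher in 0 (median log2 ratio -1.44). Kit, the receptor of stem cell factor (chr5:75574916-75656722), was between 188 and 1237 CPM in BFUE cells and between 7.38 and 813 CPM in CFUE cells, and 2.76-fold lower in the sums, but its protein was stained for the sort. Ifngr1, the interferon gamma receptor, was 2.68-fold lower (2.58 to 2.78), with 332 CPM in BFUE and 124 CPM in CFUE. Of the growth factor receptors, Igf1r was at 17.4 and 16.7 CPM and Insr at 5.59 CPM in CFUE and 15.6 CPM in BFUE.

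On the erythropoietin axis, the receptor was higher and several negative regulators were lower. Epor was at 263 to 702 CPM in CFUE cells and 16.2 to 365 CPM in BFUE cells, a 2.22-fold ratio (2.15 to 2.29). Of 13 measured genes of the axis, 3 were 2-fold or more higher and 5 lower (median log2 ratio -0.43). Gab1, a docking protein, was at 70.4 CPM in CFUE and 6.37 CPM in BFUE, an 11.1-fold ratio (23.9 without the BFUE cell of well H3), and Jak2, the receptor's kinase, was 2.51-fold higher at low levels (3.83 without BFUE well F2). Ptpn6, the phosphatase that shuts the receptor off, was 4.57-fold lower (4.34 to 4.81), with 10 of 15 BFUE cells above every CFUE cell. Sh2b3, a further inhibitor, was 2.48-fold lower.

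Of 6 measured genes of the glucocorticoid response and BFU-E self-renewal, 5 were 2-fold or more lower and 0 higher (median log2 ratio -1.58). Kit and Gata2 are 2 of the 5. Nr3c1, the glucocorticoid receptor, was at 72.0 CPM in BFUE and 33.4 CPM in CFUE, 2.15-fold lower, or 1.89-fold without BFUE well B3. Zfp36l2, an RNA-binding protein that holds BFU-E in self-renewal, was 3.22-fold lower (2.97 to 3.49), with BFUE cells at 15.7 to 195 CPM and CFUE cells at 5.51 to 93.0 CPM. Tsc22d3, a classic glucocorticoid target, was 4.04-fold lower in the sums, and its median BFUE cell held 0.67 CPM.

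Most adhesion and actin genes were lower in CFUE. Of 20 measured, 15 were 2-fold or more lower and 1 higher (median log2 ratio -3.15). Their summed level was above every CFUE cell in 14 of 15 BFUE cells. Arhgdib, a GDP dissociation inhibitor of small GTPases (chr6:136923655-136941899), was at 104 to 1142 CPM in BFUE cells and 0.67 to 90.2 CPM in CFUE cells, 23.8-fold lower (22.2 to 25.5). Vim, vimentin, was 89.2-fold lower and Coro1a, coronin, 62.9-fold lower. Without 1 CFUE cell, well C10, Vim was 388-fold lower, and without well F12 Coro1a was 106-fold lower. The 1 higher gene was Lmna, lamin A of the nuclear envelope, at 390 CPM in CFUE and 75.4 CPM in BFUE, a 5.18-fold ratio. Itgb1, the beta1 integrin, and Cd44, the hyaluronan receptor, lay within 2-fold.

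**Figure D3:**
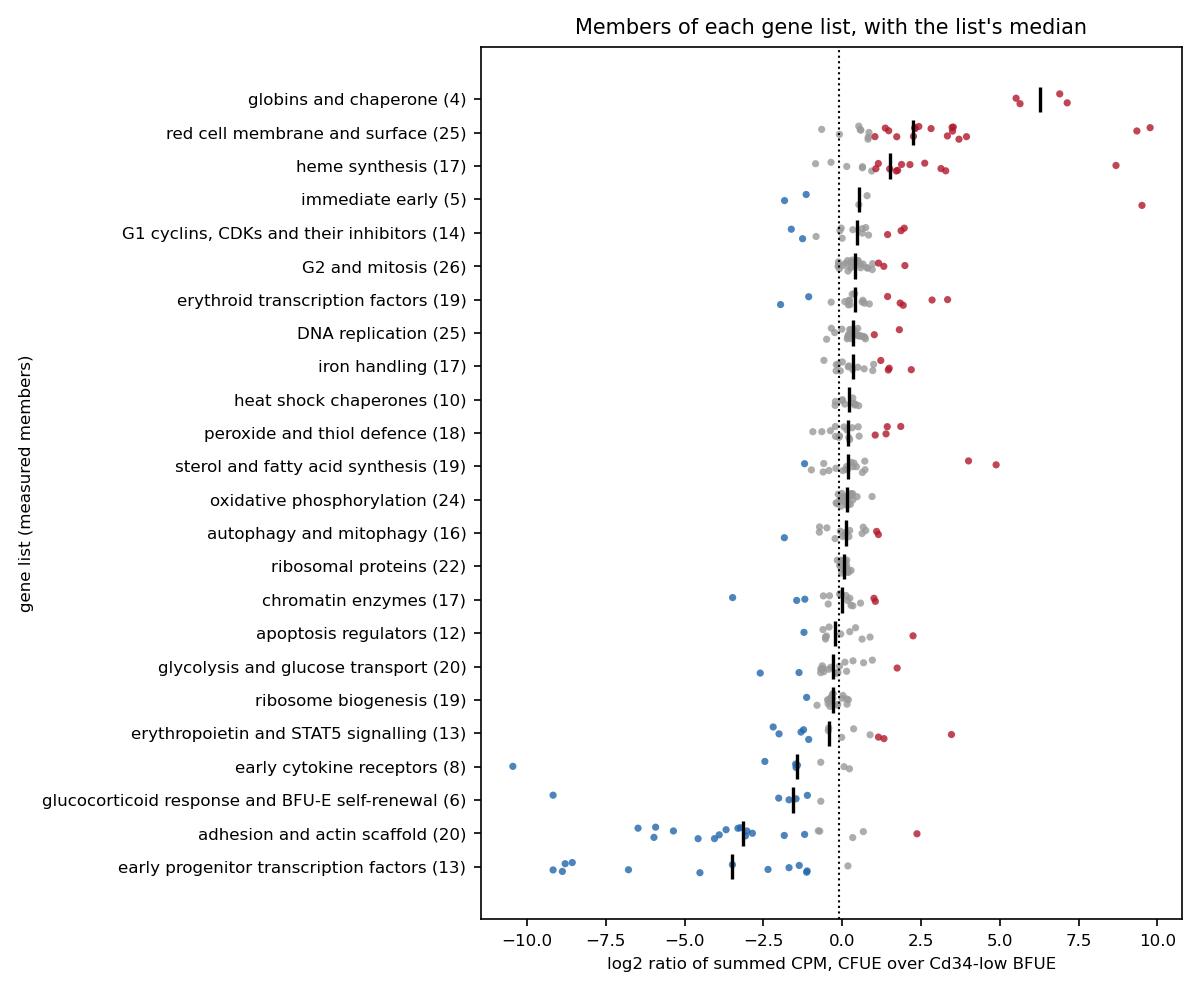
Log2 ratio of summed CPM, CFUE over Cd34-low BFUE (x axis), of each measured member of 24 gene lists (y axis, with the number of measured members). Red points are 2-fold or more higher, blue points 2-fold or more lower, grey points in between, black bars mark each list's median and the dotted line the median of all measured genes, -0.10. Globin, membrane and heme lists lie to the right, and early progenitor, adhesion, glucocorticoid and early receptor lists to the left.

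Few cell cycle genes passed 2-fold, near the 6.61% of all measured genes that were higher. Of 25 DNA replication genes, 2 were 2-fold or more higher and 0 lower (median log2 ratio 0.33). Of 26 genes of G2 and mitosis, 3 were higher and 0 lower, with a median of 0.40 (0.05 in the upper 4 plate rows, 0.81 in the lower 4). Rrm2, the small subunit of ribonucleotide reductase, was at 511 to 1725 CPM in CFUE cells and 78.0 to 737 CPM in BFUE cells, a 3.52-fold ratio (3.43 to 3.60), and Cdc6, a factor that loads replication origins, was 2.03-fold higher (1.81 without the BFUE cell of well D3). Aurka, a spindle kinase, was 2.22-fold higher.

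Among the cyclins and kinases of G1, E-type cyclins were higher and Cdk6 and Ccnd2 lower. Ccne1, cyclin E1, was 3.92-fold higher (3.78 to 4.06) and Ccne2 3.65-fold higher (5.39 without BFUE well A2). Cdk6, the kinase of D-type cyclins, was 3.06-fold lower (2.97 to 3.17), with 10 of 15 BFUE cells above every CFUE cell, and Ccnd2, cyclin D2, 2.39-fold lower. Ccnd3, cyclin D3, was 1.56-fold higher and Cdk4 was at 1027 and 1050 CPM. In all, 3 of 14 measured genes of this list were 2-fold or more higher and 2 lower (median log2 ratio 0.49; -0.11 in the upper 4 plate rows, 0.68 in the lower 4).

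In 2 pairs of related genes, Pklr with Pkm and Car2 with Car1, both members passed 2-fold in opposite directions. Pklr, the pyruvate kinase of red cells and liver, was 3.35-fold higher (3.23 to 3.48), while Pkm, the form of most other tissues, was 2.59-fold lower (2.52 to 2.66). Per kilobase of exon, Pkm was at 124 CPM and Pklr at 40.0 CPM in BFUE, and at 47.8 and 134 CPM in CFUE, so the order of the 2 turned over. Car2, the main carbonic anhydrase of red cells, was at 3297 CPM in CFUE and 1017 CPM in BFUE, a 3.24-fold ratio. Car1 was 9.62-fold lower, or 5.85-fold when BFUE well C3, at 4264 CPM, was left out. Prdx2, the peroxide scavenger of red cells, was 2.69-fold higher (2.66 to 2.73), with 20 of 22 CFUE cells above every BFUE cell, while Prdx1 was at 500 and 530 CPM. Ezh1 and Ezh2, the methyltransferases of the Polycomb complex, both lay within 2-fold.

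Of 20 glycolysis genes 1 was 2-fold or more higher and 2 lower, with Pfkp 6.07-fold lower (5.53 to 6.68). Summed glycolysis had a median of 9385 CPM in CFUE cells and 11970 CPM in BFUE cells, and 16 of 22 CFUE cells lay below every BFUE cell. None of 24 oxidative phosphorylation genes, 22 ribosomal protein genes or 10 heat shock chaperones passed 2-fold, with median log2 ratios of 0.15, 0.07 and 0.21. Ribosome biogenesis genes had Myc as the 1 lower of 19, at a median of -0.30. Of 18 genes of peroxide and thiol defence 4 were higher and 0 lower, among them Txnrd2, the mitochondrial thioredoxin reductase, 2.62-fold. The sterol and fatty acid list held Scd1 and Mgll as its 2 higher genes of 19, and Hmgcs1, of sterol synthesis, as its 1 lower, 2.29-fold (1.93 without BFUE well D3).

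Among chromatin enzymes, the genes of the de novo DNA methyltransferases were lower, while the list as a whole lay near equal. Dnmt3b was at 155 CPM in BFUE and 13.9 CPM in CFUE, 11.1-fold lower (10.1 to 12.3), with 14 of 15 BFUE cells above every CFUE cell. Dnmt3a was 2.72-fold lower (2.49 to 2.98), and just under 2-fold without BFUE well A2. The maintenance enzyme gene Dnmt1, named after its values were seen, was at 348 CPM in CFUE and 473 CPM in BFUE. In all, 3 of 17 chromatin genes were lower, with Kdm5b as the third, and 2 were higher, Suz12 and Hdac5 (median log2 ratio -0.02). Over all measured genes 14% were lower and 6.61% higher, and the counts of this and the following short lists are to be read beside these shares. Of 12 apoptosis regulators, the death factor gene Bcl2l11 was the 1 higher, 4.75-fold (11.8 without BFUE well B3), and Casp9, an initiator caspase, the 1 lower, 2.32-fold (1.98 without BFUE well A3). Of 16 autophagy genes 2 were higher and 1 lower; that 1 was Optn, a receptor for damaged mitochondria, 3.57-fold lower. Of 5 immediate early genes, Btg2 was higher and Ier2 and Ier3 lower, of which Ier2 was 2.21-fold lower and 1.65-fold without BFUE well D3.

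The CFUE cells varied widely in the late erythroid genes. The 9 cells with the most Slc4a1, in wells F12, F11, G10, F10, A12, E11, E12, G12 and B12, held between 190 and 632 CPM of it and between 11 and 252 CPM of Alas2. The cells of wells A11, B10 and G11 had no read of Slc4a1, and 0.60, 0 and 0.71 CPM of Alas2. Over the 22 cells, the rank correlation of Slc4a1 was 0.84 with alpha globin, 0.68 with Alas2, 0.48 with Epb42 and -0.48 with Kit, against -0.26 with the number of genes and -0.11 with the reads of the cell. These are descriptions over cells that share a plate and a gate. The cell of well A10, with 7422 genes, held 2153 CPM of alpha globin but 3.56 CPM of Slc4a1 and 1.43 CPM of Trim10. It also held 135 CPM of Lck, a lymphocyte kinase.

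BFUE cells varied at the other end of the program. Gata2 was at 1353 and 825 CPM in wells D1 and G2 and under 4 CPM in wells A1, A3, G1 and H3. Cd24a ranged from 1.87 CPM in well C3 to 346 CPM in well H3, and Tfrc from 1.35 CPM in well D1 to 551 CPM in well F2. Well H3 had the most alpha globin of the 15, 36.8 CPM, and 0.67 CPM of Muc13, which every other BFUE cell held at 59.4 CPM or more. The 13 measured late erythroblast markers summed to 122 to 712 CPM in BFUE cells and 891 to 8580 CPM in CFUE cells, without overlap, and 12 of them were 2-fold or more higher in CFUE. With the empty header cell kept the highest BFUE cell held 4223 CPM, and the sides overlapped.

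Beside the stem and megakaryocyte markers given above, the 3 measured neutrophil and monocyte markers, Mpo, Prtn3 and Spi1, were all 2-fold or more lower in CFUE. The whole list of 13 summed to 2.84 to 207 CPM in BFUE cells, 0 to 23.7 CPM in CFUE cells and 946 to 7558 CPM in the 8 BFUE cells left out, with Elane, Cebpa and Cebpe at 0 on both sides. Lymphoid, mast cell, eosinophil and macrophage lists had 0 measured members. Of the endothelial list, Pecam1 was the 1 measured, at 12.3 CPM in BFUE. Transcripts of liver cells were on both sides, with the 10 hepatoblast markers at 13.7 to 1500 CPM in BFUE cells and 3.34 to 415 CPM in CFUE cells. Alb, albumin, was 2.07-fold lower in CFUE, but 1.22-fold without the BFUE cell of well A2. The part of these transcripts in other results was not tested.

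The 2 intermediate gates, whose cells were in neither side, showed when along the sort the differences arose. A gene's position is the percent of its whole log2 difference, counted from BFUE, that a gate had reached. Over the 544 higher genes, the median position was 51.4% in the lower and 74.9% in the upper intermediate gate, and over the 1154 lower genes 47.0% and 70.7%. Levels went up at all 3 steps in 310 of the higher genes and down at all 3 in 563 of the lower ones. The medians of both directions lay between the ends in both gates. The genes were chosen for their difference between the ends, so such a place was in part fixed in advance.

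The 4 globin genes stood at a median position of 10.3% in the lower and 53.5% in the upper gate, behind the 51.4% and 74.9% of all higher genes. The 17 higher membrane genes stood at 28.7% and 78.0%, and differed among themselves. Slc4a1 was at 0.19, 0.23, 2.69 and 166.8 CPM from BFUE through the intermediates to CFUE, so that its largest step was the last. Trim10 was at 0.19, 14.5, 32.4 and 124.6 CPM over the same gates, with its largest step at the lower gate. Ccne1 was early, at 380 CPM in the lower gate and 539 CPM in both the upper gate and CFUE. The 3 higher genes of G2 and mitosis stood at a median of 3.16% in the upper gate, near the BFUE level.

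The lower genes left at different gates too. Gata2 went from 235 through 15.6 and 1.48 to 0.41 CPM, and Muc13 stood at 56.0% of its way in the lower gate. Rab37 had come 97% of the way there. Hhex was late, at 34.0 CPM in the lower and 16.8 CPM in the upper gate against 0.52 CPM in CFUE. The 15 lower adhesion genes stood at a median of 39.2% and 83.8%, and the 12 lower early factors at 51.2% and 86.2%. Kit, at 694 CPM in the lower gate against 764 CPM in BFUE, stood at 9.35% of its way.

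**Figure D4:**
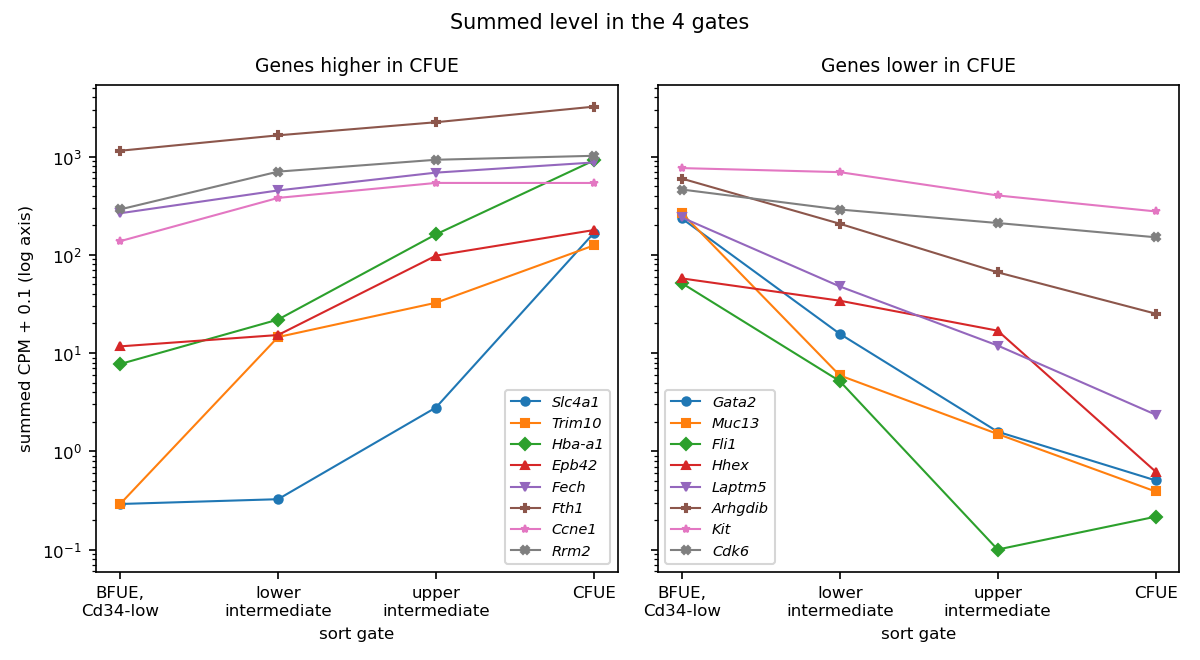
Summed CPM plus 0.1 (log axis) in the 4 gates from Cd34-low BFUE to CFUE, for 8 genes that were higher in CFUE (left) and 8 that were lower (right). Slc4a1 goes from 2.69 to 166.8 CPM at the last step, Ccne1 is level from the upper intermediate gate on, and Gata2 and Muc13 drop at the first step.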

How the data were processed

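Single cells were sequenced with Smart-seq2, 1 library a well. The authors deposited 1 table of read counts per gene and well, made with STAR 2.4 on GRCm38 and featureCounts, per the submitters' processing notes. Not given in the sources used here: featureCounts version, annotation release, strand setting, treatment of multi-mapped reads. The table's header holds 1 empty cell more than its rows. Wells were matched to samples by their header names in order with that cell dropped, so the last, CFUE H12, was matched by position. The other reading was run as an alternative. A library is 1 cell and no animal is named, so no count test was run.

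Reads were summed per side, scaled to CPM and compared as ratios, with exact intervals at 95% (scipy 1.17.1, Python 3.11.15). A gene was measured at 10 CPM in either side and counted at 2-fold, and a side's floor is 3 reads. Scripts were tested on simulated data. Alternatives used edgeR 4.0.16 (TMM factors) and DESeq2 1.42.0 (size factors), other cell and gene filters, thinning to 500000 reads a cell, plate rows, and leaving out each cell.

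Named genes are the 15 largest and 15 smallest ratios among genes with 50 CPM in the higher side, 10 reads in 50% of its cells, at most 30% of reads from 1 cell, 2-fold also in mean CPM and 1 direction in both sets of plate rows. To these come gene pairs, sort genes, and the extreme and most abundant members of each list. The members and lists were chosen with earlier results of these data known, and other genes named were chosen after their values were seen. Flvcr1 and Ahsp were not analysed here. Some measured genes are not reported here.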

Additional observations from a re-analysis of the deposited data

How the results depend on the processing

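No paired analysis was possible because each library is 1 cell, replicate numbers are plate positions, and no result comes from a test. Counts of genes higher and lower in CFUE (544 and 1154) were 1522 and 1939 with only the 2 BFUE cells that had 0 reads of Cd34, 225 and 333 at 50 CPM or more, 2236 and 3509 with no filter on low genes, 1067 and 2008 at 1.5-fold, and 175 and 464 at 4-fold. These follow from fewer cells, fewer or more genes tested and another threshold. Higher heme genes were 5 at 4-fold. Lower early progenitor factors were 7 in plate rows E to H and 6 at 50 CPM or more. Leaving out 1 cell gave 525 to 574 higher and 1093 to 1194 lower genes, 11 heme, 16 to 18 membrane, 10 to 12 early factor and 15 adhesion genes. Leaving out BFUE D3 or CFUE A10, chosen after seeing the data, gave 525 and 543 higher and 1170 and 1138 lower genes.

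With the empty header cell kept, also chosen after seeing the data, 555 genes were higher and 1089 lower, with 9 heme, 17 membrane, 10 early factor and 14 adhesion genes. Of the named genes, 18 moved by over 1.5-fold, and Lck turned to -1.56. Myc (-0.91), Runx1 (-0.96) and Nr3c1 (-0.95) no longer passed 2-fold. Uros was 2.64 and Fam210b 2.39, and Gpr146 1.59, Tspan15 2.30, Sox6 4.62 and Klf3 2.95.

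Some log2 ratios turned direction, and the cause was not tested. With only the BFUE cells without Cd34 reads, Kit was 0.26, Csf2ra 1.47, Sh2b3 0.0054, Tsc22d3 4.05, Hmgcs1 0.061, Casp9 1.07, Ier2 0.24 and Prg2 -0.29. With all BFUE cells, Hdac5 was -1.28 and Lck -1.28. Alb was 0.82 by the median of cells and 0.44 in rows E to H. Marco was 2.48 in rows E to H and between -4.07 and 2.52 when 1 cell was left out.

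A side of 3 reads allows 0.087 CPM in CFUE and 0.11 CPM in BFUE, so ratios over few reads are bounded by their intervals. Nothing shows how far other embryos would differ.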
